A study of Homo sapiens with 2 samples.

Results

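A set of 10 genes that the tumour suppressor p53 is known to switch on (CDKN1A, MDM2, GADD45A, BBC3, BAX, FDXR, SESN1, RPS27L, PHLDA3 and TP53I3) was followed in single SH-SY5Y cells that had received no treatment. The genes were taken by name, and all 10 were among the 33538 genes of the count table and had UMIs. SH-SY5Y is a neuroblastoma line subcloned from SK-N-SH. 1 culture was divided into 2 flasks, SplitA and SplitB, grown without synchronisation to near confluence, stained with 1 hashtag antibody per flask, pooled and run in a single 10x experiment that gave an mRNA and a hashtag library. No flask was given a p53 activator or any other agent, so the comparisons lie between cells of 1 flask and are repeated in the second, and flasks of 1 culture of 1 line carry no information on other cultures. Cells were assigned to a flask when 1 hashtag count was at least 3 times the other and the other lay under the threshold the study set, and were kept with at least 1000 genes. That left 899 SplitA and 1195 SplitB cells of the 2879 in the table, with 1801 to 27205 UMIs per cell (unique molecular identifiers, each counting 1 captured mRNA molecule by its 3′ end) and medians of 6063 and 6346 UMIs.

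p53 is a transcription factor that is kept scarce in resting cells because MDM2, itself a p53 target, marks it for degradation. DNA damage and other stresses release p53, which then binds DNA as a tetramer and activates genes that halt the cell cycle, assist repair or start apoptosis. Many of these genes are also transcribed at a low level without added stress. CPM values are gene UMIs scaled to all UMIs of the flask or cell group, and 1 UMI was worth 0.171 CPM in the whole of SplitA and 0.124 CPM in SplitB. The cells carried the adrenergic neuroblast markers of this line: 10 of 11 had a UMI in at least 20% of cells of both flasks, the exception being TH with 9 UMIs in each flask, and the list summed to 3707 and 3570 CPM. Fibroblast markers summed to 22.7 and 23.6 CPM. PDGFRB was the highest of them, at 14.4 and 12.9 CPM and in 8.90% and 7.95% of cells, while COL1A2 and DCN were at 0. Epithelial markers summed to 2.22 and 1.98 CPM with KRT8 and CDH1 at 0, and the 3 blood markers were at 0.

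p53 binds a pair of 10-base repeats, each with a core that reads C, A or T, A or T, G between 3 purines and 3 pyrimidines. The members were scanned for this 20-base p53 consensus with no spacer, both cores exact and at most 2 of the 12 flanking bases off, on both strands within 3000 bases of the start of the canonical transcript (hg38, GENCODE annotation). 2 of the 10 members held such a match, against 2.88% of 19643 protein-coding genes (565 genes). They are shown as the 2 members that held a match at this limit. Capitals mark the 4-base core of each repeat.
CDKN1A, chr6:36676449-36676468, plus strand, 2 mismatches: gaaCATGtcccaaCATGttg
GADD45A, chr1:67686775-67686794, plus strand, 1 mismatch: gaaCATGtctaagCATGctg

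The CDKN1A match was at position -2256 relative to the canonical start (negative is upstream), where it straddled the first annotated base of the gene (chromosome 6, 36676460 to 36687337). The GADD45A match was 1583 bases downstream of the start, in intron 3. With 3 flanking mismatches allowed, a limit chosen after the first scan, 5 members held a match against 16% of genes, and BBC3, RPS27L and TP53I3 joined the set with these sequences nearest their start.
BBC3, chr19:47231320-47231339, minus strand, 3 mismatches: ctgCAAGtcctgaCTTGtcc
RPS27L, chr15:63157527-63157546, minus strand, 3 mismatches: ggcCTAGagcagaCAAGccc
TP53I3, chr2:24085165-24085184, minus strand, 3 mismatches: cagCTTGcccaccCATGctc

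These 3 matches were at positions -130, -59 and -340. A match is a run of letters and not a measured binding site. The other 5 members, MDM2, BAX, FDXR, SESN1 and PHLDA3, had none in this window.

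The first question was which members untreated cells express. The cell cycle inhibitors and growth regulators were low. CDKN1A, which encodes the cyclin-dependent kinase inhibitor p21, had 143 UMIs in SplitA and 233 in SplitB, which is 24.4 CPM (exact Poisson 95% interval 20.6 to 28.8) and 28.9 CPM (25.3 to 32.8). A CDKN1A UMI was found in 10.1% of SplitA and 11.3% of SplitB cells. GADD45A, a stress-induced protein that binds cell cycle and repair factors, was at 45.4 CPM (40.2 to 51.3) and 44.5 CPM (40.0 to 49.4) and in 21.4% and 21.1% of cells. MDM2, the ubiquitin ligase that limits p53, was at 12.1 CPM (9.47 to 15.3) and 13.4 CPM (10.98 to 16.2), and few cells held more than 1 of its UMIs (4 of 67 cells in SplitA and 8 of 99 in SplitB).

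Of the apoptosis genes, BAX, which forms pores in the outer mitochondrial membrane, was at 128 CPM (119 to 137) and 124 CPM (117 to 132) and in 50.8% and 51.0% of cells. BBC3, which encodes the BH3-only protein PUMA that acts through BAX, was at 21.2 CPM (17.6 to 25.3) and 24.5 CPM (21.2 to 28.2) and in 11.7% and 13.7% of cells. BAX mRNA was thus found in over 3 times as many cells as BBC3 mRNA. PHLDA3, which restrains the survival kinase AKT, was at 27.7 CPM (23.6 to 32.3) and 27.8 CPM (24.3 to 31.7). TP53I3, a quinone oxidoreductase linked to oxidative stress, was at 27.5 CPM (23.4 to 32.1) and 29.8 CPM (26.1 to 33.8), and the gene is overlapped on the opposite strand by FAM228B, which had 421 UMIs in all cells.

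Among the metabolic and ribosomal members, FDXR, the mitochondrial ferredoxin reductase, was at 15.5 CPM (12.5 to 19.1) and 13.6 CPM (11.2 to 16.4). SESN1, a sestrin that restrains growth signalling, was the lowest member at 5.13 CPM (3.46 to 7.32) and 3.47 CPM (2.31 to 5.02), with 30 and 28 UMIs. RPS27L, a p53-induced paralog of ribosomal protein RPS27, was the highest at 212 CPM (200 to 224) and 214 CPM (204 to 224) and in 64.2% of cells of either flask. RPS27 itself was at 12621 and 12628 CPM, so a small share of misassigned RPS27 reads could add to RPS27L, and its level is uncertain for that reason. LACTB overlaps RPS27L on the opposite strand, with 99 UMIs in all cells. In the order of levels, RPS27L, BAX and GADD45A stood apart from every neighbour beyond their intervals, while TP53I3, PHLDA3, CDKN1A and BBC3 overlapped one another in at least 1 flask, as did FDXR and MDM2. BBC3 and FDXR overlapped in SplitA only, and SESN1 lay under MDM2 in both flasks.

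**Figure D1:**
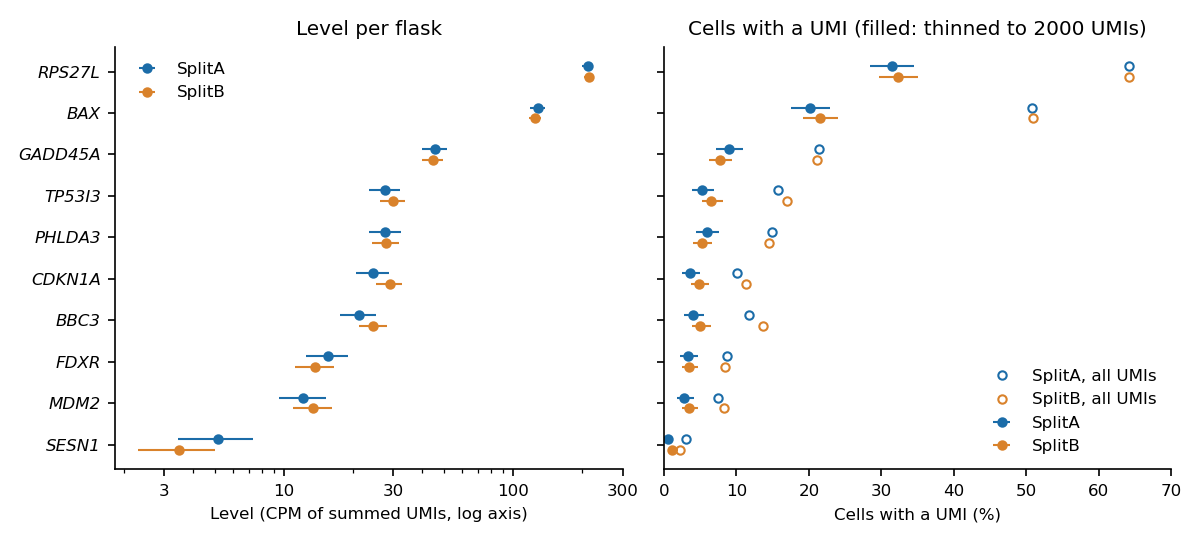
Level of each member (left, CPM of summed UMIs, log axis) and percent of cells with a UMI (right), with 1 point per flask and exact 95% intervals. Filled points on the right are cells thinned to 2000 UMIs and open points are all UMIs. The flasks lie on top of each other, from RPS27L at 212 and 214 CPM down to SESN1 at 5.13 and 3.47 CPM.

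Across flasks the members were at like levels. The widest gap was SESN1, 1.48-fold higher in SplitA on 30 and 28 UMIs. No member of the 10 was 1.5-fold or more apart, beside 6.51% of 12290 genes with at least 20 UMIs over both flasks together. A count of 0 of 10 is near that share. Together the members made up 518.4 CPM in SplitA and 524.4 CPM in SplitB. Of the kept cells, 90.5% of SplitA and 89.4% of SplitB had at least 1 member UMI. When every cell was thinned to 2000 UMIs, 59.6% (exact binomial 95% interval 56.3 to 62.8) of 898 SplitA and 60.9% (58.0 to 63.6) of 1193 SplitB cells had 1. Intervals cover counting error only, since cells of 1 flask are not replicates and no test between conditions could be made. A cell type without these genes was not present, so the share due to free RNA in the droplets is not known.

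CDKN1A was concentrated in few cells. In SplitA, 71 cells had exactly 1 CDKN1A UMI, 11 had 2, 4 had 3 and 5 had 4 or more, with a maximum of 12. In SplitB, 92 cells had 1, 20 had 2, 13 had 3 and 10 had 4 or more, with a maximum of 11. The top 1% of cells, 9 in SplitA and 12 in SplitB, held 34.97% and 29.2% of all CDKN1A UMIs, compared with 18.3% and 19.4% for MDM2, 15.8% and 18.4% for GADD45A and 7.75% and 7.67% for BAX. FDXR was at 23.1% and 19.1%, and SESN1, on 30 and 28 UMIs, was above CDKN1A at 40% and 50%. This share also depends on how many UMIs a gene has, so it does not rank members of unlike level. At equal depth the variance of CDKN1A over its mean was 1.59 and 1.28, a ratio that would be 1 for pure counting noise. Ranked by the smaller of its ratios in the 2 flasks, CDKN1A was at place 200 of 9131 genes and RPS27L at place 201. RPS27L (1.28 and 1.28), GADD45A (1.13 and 1.18), BAX (1.24 and 1.11) and PHLDA3 (1.24 and 1.09) were also over the medians of all genes, 0.995 and 1.00. BBC3 was at 1.01 in both flasks and MDM2 at 1.12 and 0.966, near those medians.

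The second question was whether the members occur in the same cells. At 2000 UMIs a cell held 0.859 (SplitA) and 0.915 (SplitB) members on average. Up to 2 members per cell, the counts lay close to those from multiplying the single shares: 183 cells had at least 2 members in SplitA against 181.4 from the product, and 264 against 267.7 in SplitB. At least 1 member was found in 535 SplitA cells against 552.4 and in 726 SplitB cells against 762.7. Cells rich in members were more frequent than the product gives. At least 3 members were found in 36 SplitA cells against 33.3 (1.08 times) and in 75 SplitB cells against 53.5 (1.40 times). At least 4 members were found in 11 SplitA cells against 3.65 from the product, 3.01 times as many, and in 19 SplitB cells against 6.53, 2.91 times as many. At least 5 members were found in 3 cells against 0.250 and in 5 cells against 0.508. At 4000 UMIs per cell the excess at 4 members was smaller, with 37 cells against 28.5 (1.30 times) in SplitA and 57 against 36.0 (1.58 times) in SplitB, and at least 5 members were found in 11 cells against 3.93 (SplitA) and in 21 cells against 4.86 (SplitB). Without the cells of 4 or more CDKN1A UMIs, 8 cells against 3.24 and 14 against 5.89 still held at least 4 members, 2.47 and 2.37 times the product.

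**Figure D2:**
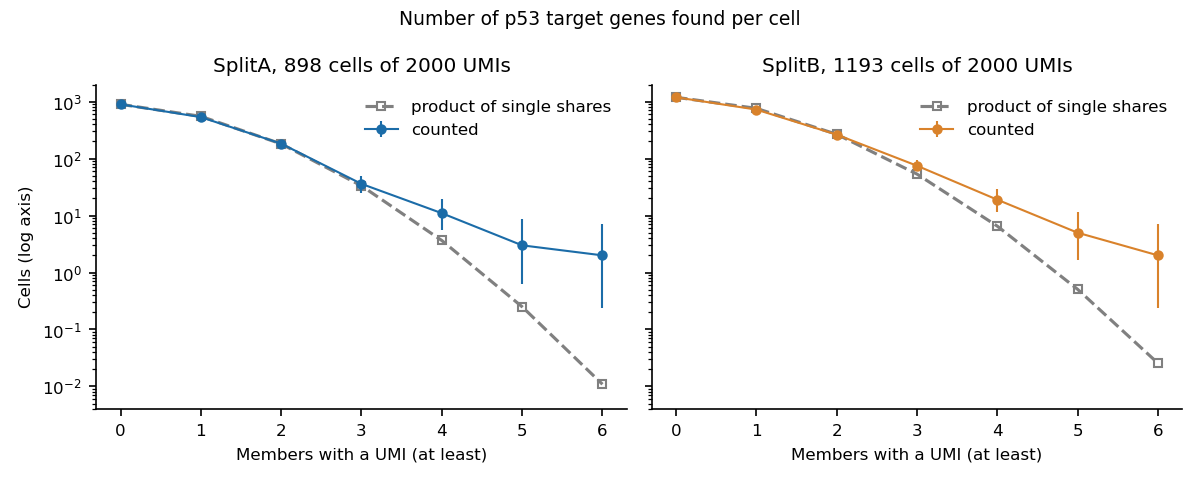
Number of cells (log axis) with at least the given number of members, in cells thinned to 2000 UMIs, for SplitA (left) and SplitB (right). Filled points are counts with exact 95% intervals and grey squares are the product of the single shares. The lines lie close up to 2 members. They part from 3 on in SplitB, with 75 cells against 53.5, and from 4 on in SplitA. At 4 members, 11 and 19 cells were counted against 3.65 and 6.53.

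Pair by pair, the counts were small. Of the 45 member pairs, 15 had at least 5 cells by the product in both flasks, and 1 of the 15 was found together at least 1.5 times as often in both, while 0.315% of 10793518 pairs of all genes were. That pair was CDKN1A with BAX, in 10 SplitA cells against 6.45 (ratio 1.55, interval 0.744 to 2.85) and 19 SplitB cells against 12.5 (1.52, 0.916 to 2.38), and both intervals include 1. The call did not survive a second random draw of 2000 UMIs, in which CDKN1A with RPS27L was the 1 pair called. CDKN1A with RPS27L (1.49 and 1.71) and PHLDA3 with RPS27L (1.68 and 1.45) came next. The median ratio over the 15 pairs was 1.09 and 1.13, beside 1.00 and 1.00 over all gene pairs. Summed over all 45 pairs, cells holding both numbered 316 against 259.9 in SplitA (1.22 times) and 501 against 396.5 in SplitB (1.26 times). The pairs called changed with depth: thinned to 4000 UMIs, 5 pairs passed, CDKN1A with GADD45A, CDKN1A with PHLDA3, MDM2 with GADD45A, GADD45A with PHLDA3 and BBC3 with PHLDA3. Neither the number of member pairs compared nor the share of all gene pairs is given at that depth. The 5 pairs therefore cannot be set against the 1 pair at 2000 UMIs.

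The third question was how the members relate to the cell cycle. Scores over S and G2M genes placed 374 SplitA cells in G1, 274 in S and 251 in G2M, and 503, 345 and 347 SplitB cells. No G1 genes were scored, so G1 here means cells placed in neither S nor G2M, and non-cycling cells are not told apart from it. The cycle genes behaved as the calls require, since they were used to make them: MKI67, a proliferation marker, was 25.2-fold and 12.01-fold higher in G2M than in G1 cells, and TOP2A 21.8-fold and 19.3-fold.

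Against G1, 2 of 10 members were at least 1.5-fold lower in G2M cells of both flasks, where 4.33% of 9659 genes were lower and 12.9% higher, and no member was higher. BBC3 was at 29.2 CPM in G1, 15.6 in S and 15.9 in G2M cells of SplitA, and at 37.3, 20.3 and 11.3 CPM in SplitB. Its G2M to G1 ratio was 0.543 (0.339 to 0.849) and 0.304 (0.194 to 0.461). PHLDA3 was at 34.8, 27.6 and 18.6 CPM in SplitA and at 39.1, 22.5 and 17.4 CPM in SplitB, a G2M to G1 ratio of 0.535 (0.348 to 0.808) and 0.445 (0.308 to 0.633). Both genes were thus highest in G1 cells of each flask.

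In S cells, BBC3 was again lower than in G1, at 0.534 (0.326 to 0.849) and 0.543 (0.379 to 0.768), and was the 1 member of 9 compared that passed 1.5-fold in both flasks, beside 3.07% of 9425 genes lower and 8.62% higher. GADD45A was at 48.7, 36.0 and 49.8 CPM in SplitA and 54.1, 32.2 and 42.9 CPM in SplitB, lowest in S cells of each flask, with an S to G1 ratio of 0.739 (0.531 to 1.02) and 0.594 (0.446 to 0.784). Between G2M and S cells, 0 of 9 members passed, beside 3.72% of genes higher and 1.26% lower. Counted by cell, 53.3% of SplitA and 58.5% of SplitB cells with a BBC3 UMI were in G1, against 40.1% and 39.5% of the cells without. For PHLDA3 the gap was small in SplitA, at 44.8% (36.2 to 53.6) with a UMI against 41.0% without. In SplitB it was 53.2% (45.5 to 60.8) against 40.2%.

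CDKN1A did not pass the limit in both flasks: it was at 30.9, 26.4 and 14.2 CPM in SplitA and 33.1, 25.5 and 26.3 CPM in SplitB, a G2M to G1 ratio of 0.460 (0.282 to 0.728) and 0.795 (0.576 to 1.09). Counted by cell, 39.6% (29.5 to 50.4) of SplitA and 44.4% (35.9 to 53.2) of SplitB cells with a CDKN1A UMI were in G1. Of the cells without, 41.8% of each flask were. In S the shares were 40.7% with and 29.3% without in SplitA, and 31.1% and 28.6% in SplitB. In G2M they were 19.8% and 28.8%, and 24.4% and 29.6%. FDXR had G2M to G1 ratios of 0.710 (0.402 to 1.22) and 0.574 (0.348 to 0.922). MDM2 lay the other way, at 8.48, 15.6 and 13.7 CPM in SplitA and 11.4, 15.4 and 14.2 CPM in SplitB, with intervals of its ratios that include 1. BAX was even over the cycle (125, 133 and 126 CPM, and 133, 117 and 120 CPM), and so was RPS27L (226, 199 and 204 CPM, and 221, 213 and 206 CPM). SESN1 had too few UMIs to place, with 7 and 13 UMIs in G1 and G2M cells of SplitA and 15 and 7 in SplitB.

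**Figure D3:**
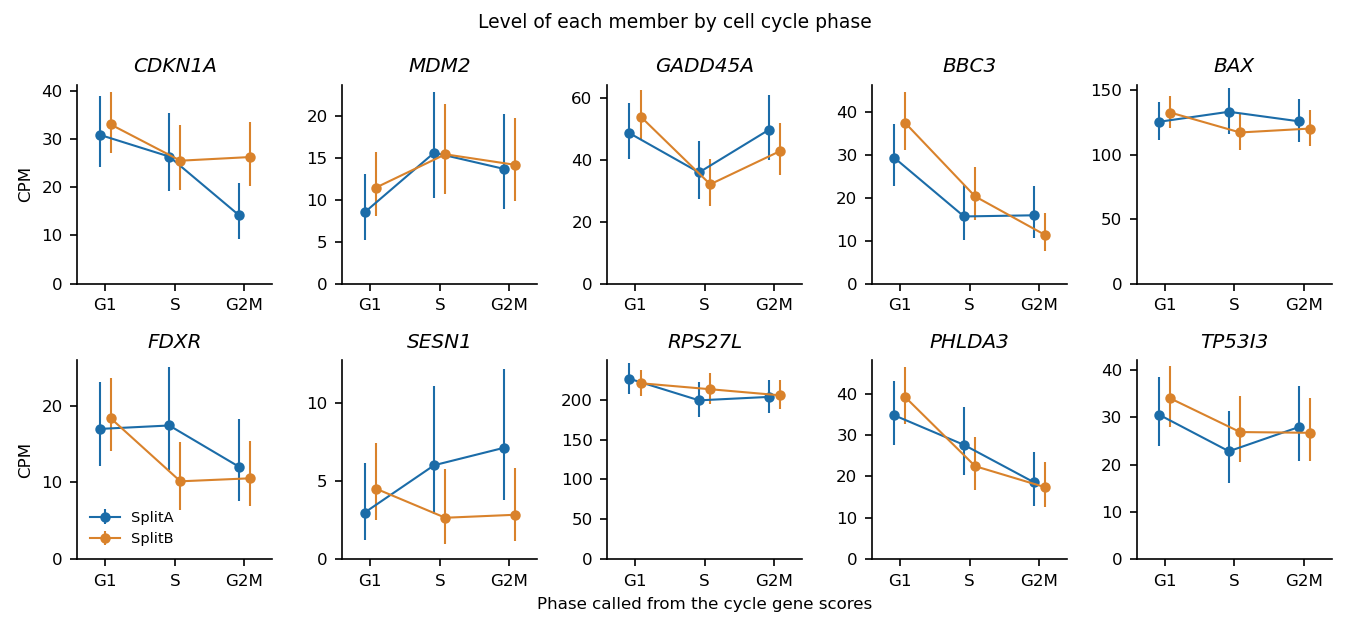
Level of each member (CPM of summed UMIs, axis from 0) in cells called G1, S and G2M, with 1 line per flask and exact Poisson 95% intervals. BBC3 and PHLDA3 are highest in G1 cells of both flasks, BBC3 at 29.2 and 37.3 CPM and PHLDA3 at 34.8 and 39.1 CPM, while BAX and RPS27L are level.

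Over the 10 members the median log2 ratio of G2M to G1 was -0.14 in SplitA and -0.34 in SplitB, beside 0.15 and 0.14 over all genes compared. Median UMIs per cell were higher in G2M (7066 and 6968) than in G1 cells (5828.5 and 6103), and levels were scaled to the UMIs of each group. Of 28 other p53 targets, 17 could be compared between G2M and G1, and 2 were higher and 0 lower, a share near the 12.9% and 4.33% of all genes: PMAIP1, which encodes the BH3-only apoptosis protein NOXA, at 15.3, 35.4 and 27.9 CPM in SplitA and 17.4, 35.2 and 30.8 CPM in SplitB, and IER5, an immediate early gene, at G2M to G1 ratios of 2.01 (1.30 to 3.14) and 1.93 (1.26 to 2.99). Of these BH3-only genes, PMAIP1 was thus lowest and BBC3 highest in G1 cells of each flask. The other p53 targets found in at least 20% of cells were within 1.5-fold: CCNG1, a cyclin, at ratios of 0.910 and 1.11, TRIAP1, an apoptosis inhibitor, at 0.755 and 0.897, and NINJ1, a membrane rupture protein, at 0.946 and 0.877. Of 16 regulators of p53, 12 could be compared, and 2 were higher in G2M than in G1 cells, beside the same 12.9%, the checkpoint kinase gene CHEK1 at 2.73 and 3.11 and SIRT1, a deacetylase.

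Cells were next divided by whether they held a CDKN1A UMI, a comparison chosen after the values above were seen. In cells with a CDKN1A UMI (91 in SplitA and 135 in SplitB), 6 of the 9 other members were at least 1.5-fold higher in both flasks than in cells without, beside 2.55% of 10555 genes higher and 2.25% lower. PHLDA3 was at 58.3 CPM in cells with a CDKN1A UMI and 23.0 CPM in those without in SplitA, and at 78.7 and 20.1 CPM in SplitB, ratios of 2.53 (1.75 to 3.596) and 3.91 (2.95 to 5.17). GADD45A was at 79.0 and 40.4 CPM, and at 90.1 and 37.7 CPM, ratios of 1.96 (1.45 to 2.62) and 2.39 (1.87 to 3.04). BBC3 was at 41.4 and 18.1 CPM, and at 44.6 and 21.5 CPM, ratios of 2.29 (1.48 to 3.45) and 2.07 (1.46 to 2.89).

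BAX (1.60 and 1.86) and RPS27L (1.63 and 1.74), the members found in most cells, were closer to the limit, and with trimmed-mean scaling BAX no longer passed it in both flasks. FDXR had ratios of 2.22 (1.32 to 3.62) and 1.66 (0.992 to 2.68), and its mean log2 ratio of 0.94 was 0.21 (SD 0.44 over 2 flasks, below 0 in 1 of them) when cells were thinned to 2000 UMIs before they were divided. MDM2 (1.47 and 2.11), TP53I3 (1.83 and 1.41) and SESN1 (1.32 and 1.81) were over 1 in both flasks and under the limit in 1 of them. Over the 9 members the median log2 ratio was 0.87 and 0.89, beside 0.03 and 0.02 over all genes. Cells with a CDKN1A UMI had medians of 6747 and 6838 UMIs and those without 6016 and 6248, and in cells of 4000 to 8000 UMIs, 5 of the members passed in both flasks, beside 2.82% of genes.

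The result turned on how many CDKN1A UMIs a cell held. Cells with exactly 1 CDKN1A UMI had 1 of 9 members past the limit, PHLDA3, at 1.68 (1.00 to 2.69) and 2.43 (1.62 to 3.56), beside 2.78% of genes. Their GADD45A ratio was 1.37 (0.901 to 2.02) in SplitA and 0.918 (0.578 to 1.40) in SplitB. The other members called in the whole division were under the limit but above 0 in mean log2 ratio over both flasks. BAX was at 0.48 (SD 0.05 over 2 flasks), FDXR at 0.40 (0.09), BBC3 at 0.29 (0.16) and RPS27L at 0.24 (0.05). Without the cells of 4 or more CDKN1A UMIs, 4 members passed: GADD45A, BBC3, FDXR and PHLDA3. The share of all genes is not given for that division.

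Within G1 cells alone, 8 of the 8 members that could be compared were higher in cells with a CDKN1A UMI, beside 3.91% of 7439 genes. Of the 15 cells with 4 or more CDKN1A UMIs, 9 were in G1. The G1 division was not repeated without them or for cells with exactly 1 UMI, so their part in it was not tested. PHLDA3 had ratios of 3.22 (1.96 to 5.20) and 4.10 (2.83 to 5.91), GADD45A of 2.99 (1.96 to 4.49) and 3.95 (2.88 to 5.38), and MDM2, on 20 and 38 UMIs, of 3.54 (1.19 to 9.54) and 3.30 (1.55 to 6.71). Within S cells BAX (1.60 and 1.62) and PHLDA3 (2.29 and 3.30) passed, beside 1.82% of genes. Within G2M cells 0 members passed in both flasks, beside 3.52% of genes, and GADD45A was at 0.938 (0.392 to 1.94) and 0.996 (0.497 to 1.82). The difference between phases was not tested.

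**Figure D4:**
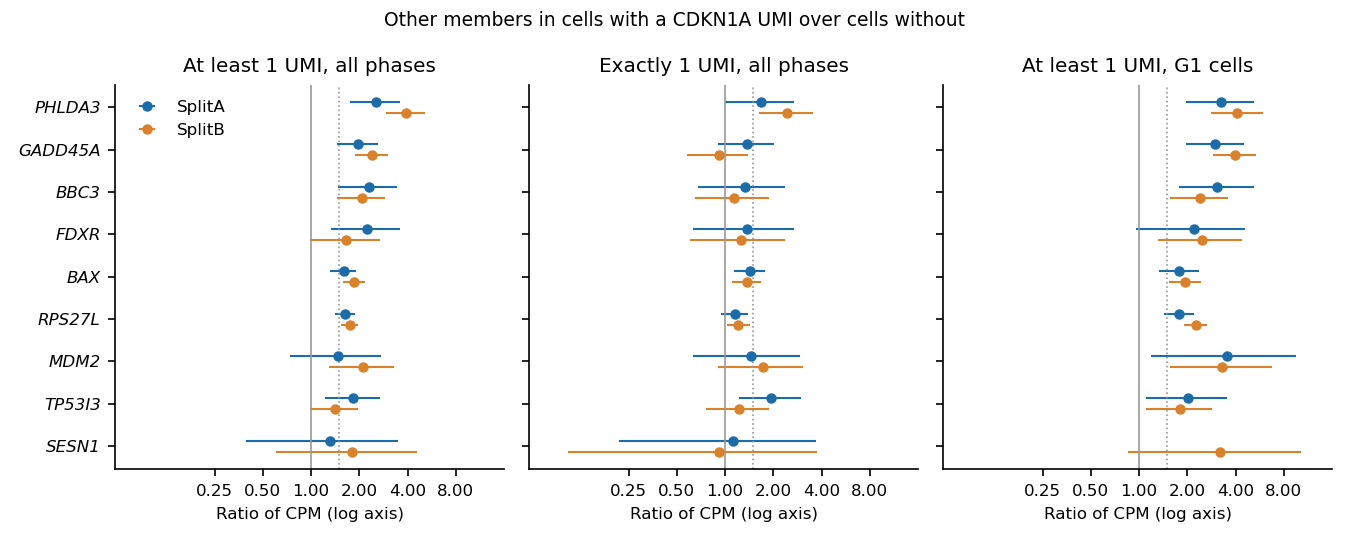
Ratio of CPM (log axis) in cells with a CDKN1A UMI over cells without, for the 9 other members, with exact 95% intervals and 1 point per flask. The panels take cells with at least 1 UMI, with exactly 1 UMI, and G1 cells with at least 1, and the dotted line marks 1.5. PHLDA3 lies at 2.53 and 3.91 on the left, 1.68 and 2.43 in the middle and 3.22 and 4.10 on the right.

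Genes outside the set were compared in the same way. Of 19 other p53 targets compared, 6 were at least 1.5-fold higher in both flasks and 0 lower, and of 13 p53 regulators 0 passed, beside 2.55% of all genes higher and 2.25% lower. Higher calls were not limited to p53 targets: of 14 integrated stress response genes compared, 3 were higher and 0 lower. CCNB1, the mitotic cyclin, was lower in cells with a CDKN1A UMI, at 0.542 and 0.408, while MKI67 was at 0.680 and 0.881. Of the 5257 genes with at least 100 UMIs per flask, 43 (0.818%) were higher in both flasks, and ranked by the smaller of their ratios PHLDA3 was at place 1, BBC3 at 2, GADD45A at 4, RPS27L at 18 and BAX at 22. Other genes of the 43 were named after their values were seen. ZMAT3, on the list of other p53 targets, was at place 7 with 1.95 and 1.87. The named genes were not all p53 targets: TNFRSF12A, a cytokine receptor, was at 2.07 and 2.67, the calcium-binding protein genes S100A10 at 1.89 and 2.28, S100A11 at 1.86 and 2.55 and S100A6 at 1.64 and 1.82, and TFPI2, a protease inhibitor, at 2.79 and 1.68. CHGB, a secretory granule protein and 1 of the adrenergic markers, was at 3.46 and 1.64, and the neuropeptide gene GAL at 1.56 and 1.84. Of the 6 mesenchymal list genes compared, 2 were higher and 1 lower. The part of these cell traits in the members' ratios was not tested.

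When cells were divided by each of the other members instead, CDKN1A was the partner that recurred. These divisions rest on the same cells that hold both genes as the division by CDKN1A, so for CDKN1A they are not a separate result. They were not repeated without the cells of 4 or more CDKN1A UMIs. It was at least 1.5-fold higher in both flasks in cells with a UMI of MDM2 (1.72 and 3.11), GADD45A (2.58 and 2.78), BBC3 (3.92 and 2.15), BAX (2.68 and 2.60), FDXR (4.01 and 2.75), RPS27L (3.06 and 2.73) or PHLDA3 (4.03 and 4.93), which is 7 of the 9 divisions. The shares of all genes that were higher in those divisions were 2.43% for MDM2, 0.947% for GADD45A, 0.881% for BBC3, 0.407% for BAX and 1.06% for RPS27L. In cells with a PHLDA3 UMI 4 of the 9 other members passed (1.09% of genes), CDKN1A, GADD45A, BBC3 and RPS27L, and in cells with an FDXR UMI 3 passed (2% of genes), CDKN1A, GADD45A and TP53I3. In cells with a TP53I3 UMI 0 passed (0.815% of genes), and in cells with a SESN1 UMI, 27 and 26 cells, 0 were higher (4.13% of genes). In the other direction, SESN1 was lower in cells with an MDM2 UMI (1 of 9, beside 2.09% of genes) and MDM2 in cells with a SESN1 UMI (1 of 9, beside 8.03%), both on 0 UMIs in SplitA and 1 UMI in SplitB, with ratios in SplitB of 0.325 (0.00793 to 1.97) and 0.391 (0.00981 to 2.23).

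For 2 of the 3 members found in at least 20% of cells, GADD45A and BAX, the gene most like them was another member. Likeness was the correlation of log-normalised levels over the cells of a flask, and all values were low. The members below 20% were looked at after their values were seen. Of these, BBC3 and PHLDA3 were most like CDKN1A. The nearest genes of MDM2 (NCKAP1), FDXR (TUBA1A), SESN1 (ANKRD9) and TP53I3 (NPY, 0.125 and 0.126) were not members. CDKN1A, which is below the 20% of cells set for this comparison and was added after its values were seen, had its 4 highest correlations among 5190 genes with PHLDA3 (Pearson r of 0.219 in SplitA and 0.283 in SplitB), RPS27L (0.171 and 0.203), BAX and GADD45A. GADD45A was most like CDKN1A (0.167 and 0.194), then TNFRSF12A (0.123 and 0.195) and PHLDA3 (0.130 and 0.125). BAX was most like CDKN1A (0.183 and 0.186), then RPS27L (0.107 and 0.178) and the ribosomal protein gene RPL27 (0.149 and 0.134). RPS27L differed from GADD45A and BAX in that no member was among its 3 nearest genes. These were ATP5F1E, an ATP synthase subunit (0.261 and 0.199), SERF2 (0.229 and 0.207) and the ferritin light chain gene FTL (0.227 and 0.208), all abundant. BAX also reached an r of 0.1 in both flasks with FTL (0.104 and 0.122) and the ribosomal protein gene RPLP1 (0.107 and 0.124). For RPS27L, 155 genes (2.99%) reached an r of 0.1 in both flasks, against 9 for CDKN1A (0.173%). The points are 899 and 1195 cells that share a library and differ in depth, and correlations this weak are descriptions of sparse counts.

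The cells with 4 or more CDKN1A UMIs, a limit set after the values were seen, numbered 15, with 5 in SplitA and 10 in SplitB, 9 in G1, 0 in S and 6 in G2M. They held 100 CDKN1A UMIs, 26.6% of all those in kept cells. BAX and RPS27L were found in 15 of the 15, PHLDA3 in 11, GADD45A in 9, FDXR in 7, MDM2 in 6, BBC3 and TP53I3 in 5 each and SESN1 in 0. A median of 6 of the 10 members was found in them (3 to 8), CDKN1A being 1 of these by the choice of cells, against 2 over all kept cells. Their depth was also greater, with a median of 7748 UMIs (5163 to 26386) against 6245, and its part in the number of members was not tested in these cells. GDF15, a secreted p53 target and stress cytokine, was found in 4 of the 15, with up to 25 UMIs in a cell, and in 7 SplitA and 14 SplitB cells in all.

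**Figure D5:**
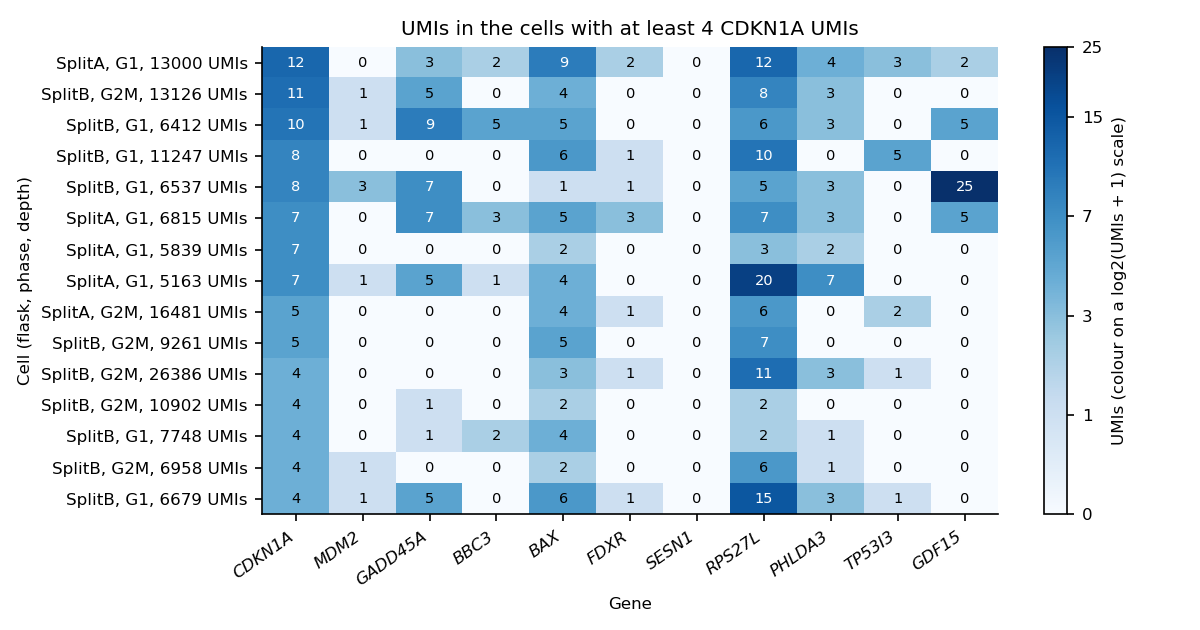
UMIs of the 10 members and GDF15 in each of the 15 cells with at least 4 CDKN1A UMIs, 1 cell per line with its flask, phase and total UMIs, coloured on a log2(UMIs + 1) scale. BAX and RPS27L have a UMI in 15 of the 15 cells, PHLDA3 in 11 and SESN1 in 0, and GDF15 reaches 25 UMIs in 1 cell.

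Cells were last divided by the summed UMIs of other gene lists at 2000 UMIs, and those at or above the upper quartile value were compared with those at or below the lower. For other p53 targets and for integrated stress response genes the sums were so low that the groups were cells with at least 1 list UMI and cells with 0, 484 and 414 cells of SplitA and 624 and 569 of SplitB for the former and 407 and 491, and 509 and 684, for the latter. For the other lists, ties left groups of 249 to 351 SplitA and 307 to 458 SplitB cells. For the list of other p53 targets, which shares no gene with the set, 1 of 10 members passed in both flasks, GADD45A at 1.66 (1.29 to 2.16) and 1.61 (1.29 to 2.01), beside 0.834% of genes higher and 0.322% lower, and CDKN1A was at 1.46 (1.03 to 2.08) and 2.48 (1.85 to 3.36). For integrated stress response genes 0 of 10 passed (0.786% of genes higher and 0.351% lower), with GADD45A at 1.254 and 1.723. For S genes BBC3 was lower at 0.612 (0.380 to 0.966) and 0.522 (0.361 to 0.745), 1 of 9 (2.23% of genes lower and 8.65% higher). For G2M genes CDKN1A was lower at 0.431 (0.256 to 0.703) and 0.625 (0.416 to 0.929) and PHLDA3 at 0.581 (0.370 to 0.896) and 0.471 (0.303 to 0.716), 2 of 9 (3.46% of genes lower and 16.4% higher). BBC3, at 0.667 (0.404 to 1.09) and 0.289 (0.170 to 0.471), fell just short of the limit in SplitA. For mesenchymal genes 0 of 9 passed (3.16% of genes higher and 0.996% lower), with CDKN1A at 1.40 (0.953 to 2.07) and 2.30 (1.67 to 3.21), near its ratios for other p53 targets.

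The mitochondrial share of UMIs, a sign of cell quality, was at medians of 8.64% and 8.82% and was not limited here. In the 174 cells at 15% or more, FDXR was higher at 2.22 (0.864 to 4.77) and 3.02 (1.55 to 5.42), 1 of 10 members beside 23.6% of genes, and RPS27L was lower at 0.216 (0.104 to 0.399) and 0.494 (0.347 to 0.684). CDKN1A (0.570 and 0.596) and PHLDA3 (0.502 and 0.515) were lower too, on 3 to 6 UMIs each, making 3 of 10 beside 12.5% of genes. Cells with and without a CDKN1A UMI had median mitochondrial shares of 8.51% and 8.65% in SplitA and 8.84% and 8.81% in SplitB.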

How the data were processed

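The UMI counts per gene and cell were deposited by the authors, who aligned the reads to GRCh38 with STAR 2.7 and then counted with Cell Ranger 4.0.0 (the annotation version is not given in the sources used here); hashtag counts are in the same table. Of 33538 gene identifiers, 33113 took a symbol from GENCODE. The labels call both hashtag groups Split 1, so the flask names follow the study's text. The hashtag rule removes multiplets of both flasks but not of 1, and no doublet caller was run. UMIs were summed per flask and cell group, divided by all UMIs (CPM) and not by gene length. Genes with at least 20 UMIs in the groups of each flask were compared, and a member was called at 1.5-fold or more in both flasks, with exact 95% intervals and no test. Between flasks, the 20 UMIs were counted over both flasks together. Cells were thinned to 2000 UMIs without replacement for co-detection. Phases came from CellCycleScoring in Seurat 5.3.0 (42 of 43 S and 52 of 54 G2M genes found). R 4.3.3 with edgeR 4.0.16 gave the trimmed-mean factors, scipy 1.17.1 the intervals, and Python 3.11.15 with pandas 2.3.3, matplotlib 3.10.9 and numpy 2.4.6 the rest; the steps were tested on simulated data. Other depths, limits, cell filters, phase lists and scalings were tried. Values were named for the 10 members, for other p53 targets found in at least 20% of cells and for genes most like a member. PMAIP1, IER5 and CHEK1 were given values as past the limit between G2M and G1 cells. The p53 regulators found in at least 20% of cells, MDM4, RPL5 and RPL11, entered the counts only. So did the ratios of other p53 targets in the division by CDKN1A, save ZMAT3. The members and lists were chosen with earlier results of these data known; the division by CDKN1A, GDF15, PMAIP1, IER5, CHEK1, SIRT1 and the wider site limit were chosen after values were seen.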

Additional observations from a re-analysis of the deposited data

Results flagged for a closer look

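Member UMIs were also present in cells left out of the comparisons of the report, above the limit that a count of 0 allows. In the 690 hashtag singlets with under 1000 genes, the 10 members summed to 321.3 CPM (exact Poisson 95% interval 286.9 to 358.7), and these cells had a median mitochondrial share of 35.01%. In the 73 hashtag multiplets with 1000 genes or more, the members summed to 465.5 CPM (411.5 to 524.6). The kept cells were at 518.4 CPM in SplitA and 524.4 CPM in SplitB.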

How the results depend on the processing

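Direction was followed for the members past the limit between G2M and G1 cells, between S and G1 cells and in the division by CDKN1A. None of these ratios, taken as the mean over both flasks, turned its direction in the alternatives tried. The direction of the other named ratios was not followed through all of them. Within a flask some of the followed ratios did: GADD45A in SplitB cells with exactly 1 CDKN1A UMI and FDXR in 1 flask of thinned cells. SESN1, which was not followed, was higher in G2M than in G1 cells of SplitA and lower in SplitB. The share of cells with a member UMI, 60.2% in both flasks together, followed the depth: 37.8% at 1000 UMIs, 82.5% at 4000 and 90.0% without thinning, and a second random draw gave 61.2% and kept the count of pairs at 1 with another pair, as did the mitochondrial limit over 13 genes; the mean number of members was 0.887, and 0.470, 1.55 and 2.10 at those depths. The member pairs called, 1 in all, were 0 at 1000 UMIs, 5 at 4000, 5 without thinning, 3 at a ratio limit of 5 to 4 and 0 at 2, 2 and 0 with at least 300 and 2000 genes, and 0 without the cells of 4 or more CDKN1A UMIs. Without thinning, cells of unlike depth are pooled, and depth alone makes genes appear together. No share of all gene pairs or of all genes is given beside the counts in this section. The members past the limit in either direction between G2M and G1 cells, 2 in all, were 4 at 5 to 4 and 0 at 2, and 1 more member joined BBC3 and PHLDA3 with trimmed-mean factors, the 100-count hashtag limit or the mitochondrial limit with 9 genes (FDXR) and with phases from thinned cells or at least 2000 genes (CDKN1A). For S against G1 cells, 1 in all, the count was 5 at 5 to 4, 0 at 2, 4 with at least 2000 genes and 2 without the cells of 4 or more CDKN1A UMIs, with MDM2 higher in the first and last. Between flasks the count of 0 became 1 at 5 to 4, with the 100-count hashtag limit, with at least 2000 genes and with the mitochondrial limit over 13 genes. The 6 members that passed the division by CDKN1A were 2 at a limit of 2 and 1 in cells with exactly 1 UMI. With 1 flask alone, where a member needs to pass in that flask only, the pairs numbered 2 to 3, the G2M members 4 to 5 (MDM2 and SESN1 higher in SplitA), the S members 2 to 5 (MDM2 higher in SplitA) and the members by CDKN1A 7 to 8. Calls of members by list sums numbered 8 to 11 (4 with both). These calls were added over the lists, so a member can count more than once. Trimmed-mean factors shifted log2 ratios by 0.085 to 0.131. The difference of mean log-normalised values gave no count, as a fold limit cannot be set on log values, and the flask comparison has no value with 1 flask. No paired analysis was possible because no test was run: groups were compared within each flask, and the 2 flasks were set side by side. Members with few UMIs limit most: SESN1, with 30 and 28, passed no 1.5-fold limit in both flasks save on 0 and 1 UMIs. The causes were not tested.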
